A study of Mus musculus with 2 samples.

Results

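The genes of the calcium pump of the sarcoplasmic reticulum, its regulators and the calcium release unit were compared between 1 heart sample of the WRN-K577M mouse line and 1 control heart sample. The 10 genes are Sln, Pln, Atp2a2, Atp2a3, Ryr2, Casq1, Casq2, Trdn, Hrc and Jph2. They were chosen by name, with earlier results of these data known. Their probes were found through the RefSeq accession that each array spot carries. All 10 were found, with 12 probes in all, among 21368 named genes and 55680 probes that are not controls. Every one of the 12 probes was well above background on both arrays, so no member was lost to a filter on dim signals.

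The WRN-K577M sample came from a B6.Cg line with the transgene labelled Tg (CAG-WRN*K577M) 5025Wcl/Mmmh, on a C57BL6 background, in which the ubiquitously active CAG promoter drives a helicase mutant of the WRN protein. The control was a heart of C57BL6 background with the genotype given as control. Each sample's total RNA, labelled with Cy3, went on its own 1-colour Agilent array. The deposited design text names the signalling behind cardiac remodelling as the question. Age, sex and the meaning of the letters ND in both sample titles are not given in the sources used here, nor is which part of the heart was taken or whether a sample pooled animals.

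In each heartbeat calcium enters the cardiomyocyte through surface channels and opens the ryanodine receptor, which releases the calcium stored in the sarcoplasmic reticulum. Relaxation follows as the SERCA pump returns calcium to the store, restrained by the small membrane proteins phospholamban and sarcolipin. Inside the store calsequestrin buffers calcium and is held near the release channel by triadin. Phospholamban is the main regulator of the pump in ventricle, and sarcolipin in the atria of the mouse.

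Levels are given as the log2 processed signal above or below each array's 75th percentile, a signal of 210 on the WRN-K577M array and 256 on the control array. Log2 ratios are the level in the WRN-K577M heart less that in the control heart, and levels of different probes are not set against one another. On the WRN-K577M array 52.9% of probes were well above background and on the control array 55.2%, and neither had a saturated spot. Myh6, Tnnt2 and Actc1 are sarcomere genes that define cardiomyocytes. Their levels were 9.70, 9.21 and 10.07 in the WRN-K577M heart and 9.52, 8.99 and 9.93 in the control heart. The dimmer probe of Myh6 had a log2 ratio of -0.30. Of 11 general cardiomyocyte markers, 7 had log2 ratios above 0 and 4 below. With 1 array per group there is no replicate check and no test, and a difference between the samples cannot be told apart from a difference between genotypes. The error given beside a ratio is the scanner software's own. It covers measurement only, as does the SD between spots of 1 probe, which was 0.052 for 90 probes with a mean level above 2 and 0.23 for 35 probes with a mean level below -2, each printed at 8 to 10 spots.

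Sln, the gene of sarcolipin, was far lower in the WRN-K577M heart, and Casq1, the skeletal muscle calsequestrin, was lower by a smaller factor. No member was at least 2-fold higher, where 1.93% of the 13999 measured genes were (named genes that both arrays detected with 1 probe or more). Sln and Casq1 were the 2 members at least 2-fold lower, where 3.46% of measured genes were. The other 8 members lay between log2 ratios of -0.60 and 0.20, with a median of -0.012. Over all 10 the median was -0.066, beside 0.020 for all measured genes, and 7 of the 10 lay within 1.5-fold, as did 84.1% of measured genes.

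**Figure D1:**
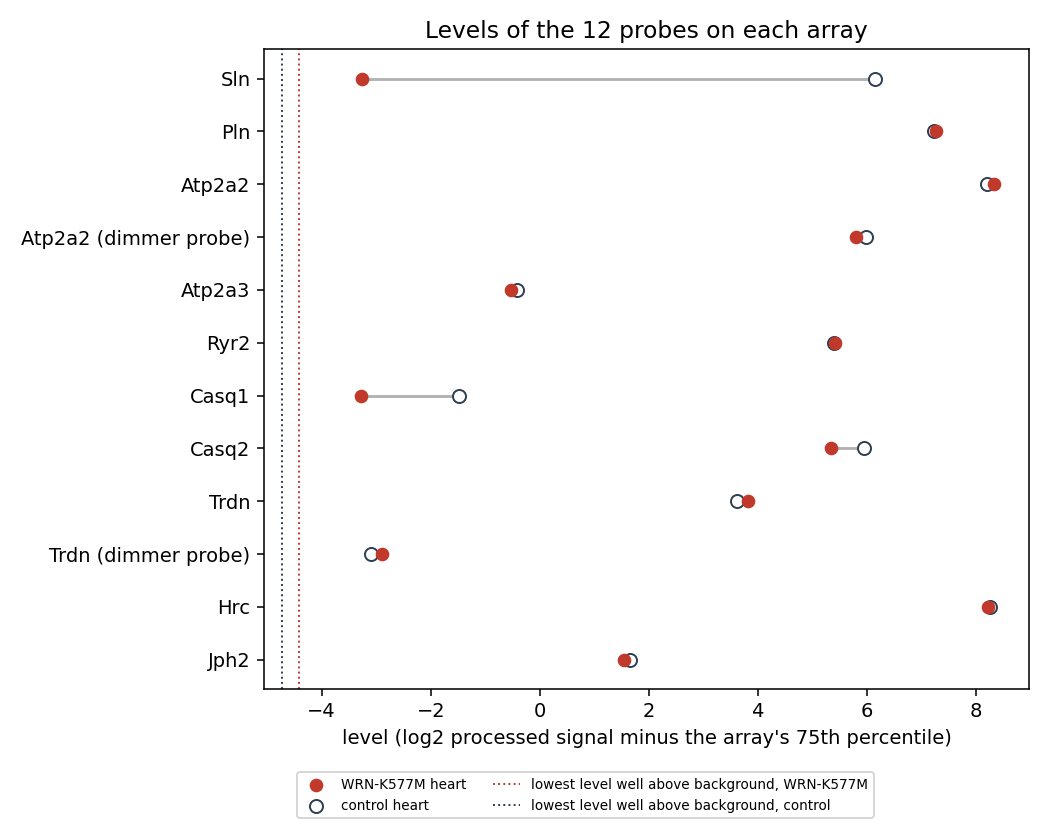
Levels of the 12 probes (log2 processed signal minus the 75th percentile of the array) on the WRN-K577M array (filled) and the control array (open), 1 array each, with a line joining the 2 values of a probe. Dotted lines mark the lowest level of any probe well above background on each array (-4.42 for WRN-K577M and -4.73 for control); Sln, Casq1 and Casq2 show the widest gaps.

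Among the regulators of the pump, the 2 small membrane proteins differed from each other. The Sln probe had a processed signal of 21.8 in the WRN-K577M heart and 18045 in the control heart. Its levels were -3.27 in the WRN-K577M heart and 6.14 in the control heart, a log2 ratio of -9.41 with a software error of 0.25, or 678-fold lower. After normexp, a background correction that here adds a constant to all signals, the log2 ratio was -7.51, or 183-fold lower. None of the other 13998 measured genes had a lower ratio. Genes well above background in the control heart only have no ratio and are not in this ranking. Sftpc, given below with a larger fold as a bound, is one of them. The unprocessed median signal of the spot was 66 over a local background of 43 in the WRN-K577M heart, and 19139 over 41.5 in the control heart. Among 308 negative control spots of the WRN-K577M array the highest unprocessed signal was 47, so the Sln spot was dim there but above that range.

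Pln, the gene of phospholamban, had levels of 7.27 in the WRN-K577M heart and 7.22 in the control heart. Its log2 ratio of 0.048 was smaller than the software error of 0.20. The log2 ratio of Sln minus that of Pln was -9.45 ± 0.32 (software error). This difference was -7.41 after normexp, -9.41 after quantile normalization and -9.36 after cyclic loess.

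For the pump itself, Atp2a2, which encodes the SERCA2 pump of cardiomyocytes, was read by 2 probes that fell on either side of 0. The brighter probe had levels of 8.33 in the WRN-K577M heart and 8.20 in the control heart, a log2 ratio of 0.13. The dimmer probe had levels of 5.80 in the WRN-K577M heart and 5.99 in the control heart, a log2 ratio of -0.19. The probes differed by 0.32 with a software error of 0.29, so the sign for Atp2a2 is not settled by these arrays. Between the brighter probe and Pln the log2 ratios differed by 0.085 ± 0.29 (software error).

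Atp2a3, which encodes SERCA3, a pump isoform of endothelium, platelets and lymphocytes, had levels of -0.52 in the WRN-K577M heart and -0.41 in the control heart. The log2 ratio was -0.11 with an error of 0.21. Endothelial markers had a median of -0.0071 over 10 genes in the same samples, with a range from -0.59 for Vwf to 0.15 for Pecam1. Leukocyte and platelet markers had a median of -0.69, with 10 of 11 measured genes below 0. Atp2a1, the fast skeletal muscle pump of the same family, had levels of 4.38 in the WRN-K577M heart and 4.44 in the control heart.

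**Figure D2:**
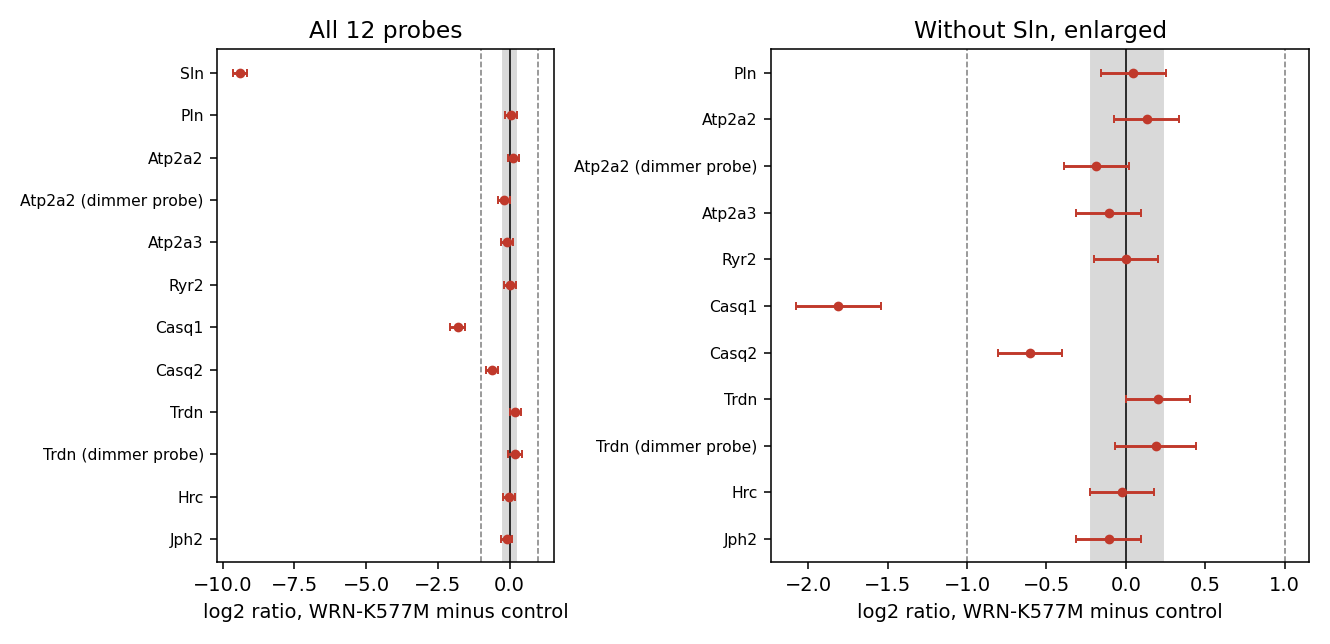
Log2 ratio (WRN-K577M minus control) of each of the 12 probes, with bars for the software's error of the ratio, for all probes (left) and without Sln on a wider scale (right). The grey band runs from the lower to the upper quartile of all measured genes (-0.22 to 0.24), dashed lines mark 2-fold, and Casq1 (-1.81) and Casq2 (-0.60) are the probes other than Sln that lie to the left of the band with their bars.

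Of the release unit, the channel and its partners at the junction were near equal, and both calsequestrins were lower. Ryr2, the ryanodine receptor of heart, had a level of 5.40 on both arrays and a log2 ratio of 0.00074. Jph2, the gene of junctophilin that ties the reticulum to the surface membrane, had levels of 1.54 in the WRN-K577M heart and 1.65 in the control heart, a log2 ratio of -0.11 ± 0.20 (software error). Hrc is a histidine-rich calcium-binding protein of the reticulum lumen. Its levels were 8.22 in the WRN-K577M heart and 8.25 in the control heart, a log2 ratio of -0.024. Among measured genes within 1 log2 unit of each mean level, 40.2% had a lower ratio than Ryr2, 35.1% than Jph2 and 16.7% than Hrc. For Hrc those genes had a median of 0.17 and a lower quartile of 0.0088.

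Trdn, the gene of triadin, was read by 2 probes with much the same ratio. The brighter had levels of 3.82 in the WRN-K577M heart and 3.62 in the control heart, a log2 ratio of 0.20. The dimmer had levels of -2.90 in the WRN-K577M heart and -3.09 in the control heart, a log2 ratio of 0.19, and the 2 ratios differed by 0.014 ± 0.33 (software error). Trdn had the highest ratio of the 10 genes, no larger than its own error of 0.20.

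Casq2, the calsequestrin of cardiac muscle, had processed signals of 8504 in the WRN-K577M heart and 15779 in the control heart. Its levels were 5.34 in the WRN-K577M heart and 5.95 in the control heart. The log2 ratio was -0.60 with a software error of 0.20, or 1.52-fold lower. Of all measured genes, 1212 (8.66%) had a lower ratio than Casq2. Of 903 measured genes within 1 log2 unit of its mean level, 28 (3.10%) did. The quartiles of those 903 were -0.11 and 0.27. Its ratio minus that of Ryr2 was -0.60 ± 0.29 and minus that of Atp2a2 -0.74 ± 0.29, while the ratio of Trdn lay 0.81 ± 0.29 above it (software errors). Of the general cardiomyocyte markers 7 of 11 lay above 0, with a median of 0.15. They ranged from -0.56 for Pgam2 to 0.34 for Actn2. Their median was -0.048 after quantile normalization and -0.00047 after cyclic loess, where Casq2 had -0.71 and -0.70.

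Casq1, the calsequestrin best known from fast skeletal muscle, had processed signals of 21.5 in the WRN-K577M heart and 92.0 in the control heart. Its levels were -3.29 in the WRN-K577M heart and -1.48 in the control heart. The log2 ratio was -1.81 with a software error of 0.27, or 3.51-fold lower, and 112 of the measured genes (0.80%) had a lower ratio. Of 2645 measured genes within 1 log2 unit of its mean level, 42 (1.59%) did. The spot was dim: its unprocessed signal was 59 over a local background of 47 in the WRN-K577M heart, and 130 over 45 in the control heart. After normexp the log2 ratio was -0.71, which is under 2-fold. The ratio of Casq1 minus that of Casq2 was -1.21 ± 0.34 (software error). This gap depended on the processing: after normexp the ratios were -0.71 for Casq1 and -0.68 for Casq2.

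Skeletal muscle markers lay on both sides of 0. The defining fast and adult myosins Myh1, Myh2 and Myh4 stayed below the threshold for well above background on both arrays, and so did Ryr1. The 10 measured skeletal markers had a median of 0.024, with 5 on each side of 0. They ranged from -0.95 for Pvalb to 0.79 for Mylpf. Mylpf was dim, with levels of -2.51 in the WRN-K577M heart and -3.30 in the control heart, and so was Tnnt3 (-2.95 and -3.72). After normexp the ratios of Mylpf, Tnnt3 and Pvalb were 0.38, 0.47 and -0.51. A stricter filter on dim probes left 7 skeletal markers, with a median of -0.15. Acta1 (-0.75) and Mybpc2 (-0.72) lay on the same side as Casq1 and Tnnt3 (0.76) on the other, and their part in the Casq1 ratio was not tested. In the order of ratios over measured genes with established names, the 3 next below Casq1 were Gli1 (-1.82), Ip6k3 (-1.83) and Cytip (-1.83). The 3 next above it were Cacna1h (-1.80), Hba-a1 (-1.80) and Fbln7 (-1.80).

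The promoters of the calsequestrin genes are shown because both genes had lower levels in the WRN-K577M heart. The factors were unequal as reported and near equal after normexp (-0.71 for Casq1 and -0.68 for Casq2). RefSeq promoter windows (GRCm38.p6) were matched for 7 of the 10 genes. Each sequence is the 250 bases before the gene's start, 5′ to 3′ on the gene's strand, at chr1:172219896-172220145 on the minus strand for Casq1 and chr3:102086165-102086414 on the plus strand for Casq2. Capitals mark E-boxes (CANNTG, the motif of basic helix-loop-helix factors) and MEF2 sites (the motif of the MEF2 factors of muscle), searched on both strands.
Casq1: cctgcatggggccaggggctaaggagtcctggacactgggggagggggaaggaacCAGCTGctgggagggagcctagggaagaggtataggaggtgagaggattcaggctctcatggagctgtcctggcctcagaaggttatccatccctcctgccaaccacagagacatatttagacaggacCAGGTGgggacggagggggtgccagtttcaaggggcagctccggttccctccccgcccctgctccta
Casq2: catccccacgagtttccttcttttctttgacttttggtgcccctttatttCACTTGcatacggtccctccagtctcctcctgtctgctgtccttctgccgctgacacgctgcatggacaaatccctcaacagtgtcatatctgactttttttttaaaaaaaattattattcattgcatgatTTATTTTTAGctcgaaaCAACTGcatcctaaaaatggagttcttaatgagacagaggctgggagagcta

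Casq1 held 2 E-boxes, which begin 195 and 67 bases before the start, the first of them CAGCTG, and no MEF2 site. Casq2 held 2 E-boxes, at 200 and 52 bases, neither of them CAGCTG, and 1 MEF2 site at 69 bases. Of all 32851 promoter windows of this length, 66.2% held CANNTG, 13.0% held CAGCTG and 2.92% held a MEF2 site. The Casq1 window had 61.6% G and C and the Casq2 window 41.6%. Of the windows of the other matched genes (Pln, Atp2a3, Ryr2, Hrc and Jph2), none held a MEF2 site. A match of letters is a description of the window and says nothing of binding.

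Sln differed together with atrial genes. Among measured genes with established names, the 3 with the ratios nearest to that of Sln were Scgb1a1, Myl7 and Myl4. Scgb1a1, a secreted protein of airway cells, had -7.78. The atrial myosin light chain genes Myl7 and Myl4 had -7.39 and -7.12. The Sln ratio lay 2.02 below that of Myl7 and 2.29 below that of Myl4. Of 18 atrial markers 16 were measured, and 8 of these were lower by 2-fold or more and none as much higher. Their median was -0.85 and their range from -7.39 to 0.41. After normexp 6 of the 16 were as much lower, without Hamp (-2.52, and -0.75 after normexp) and Gja5 (-1.31, and -0.84 after normexp). Dkk3 (-2.93) was also lower, Fgf12 was at least 14.6-fold lower where the WRN-K577M signal was too near background to measure, and Bmp10 was not well above background in either.

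The 16 measured atrial genes did not all go as far as Sln, with 12 below 0 and 4 above. Nppa, the atrial natriuretic peptide gene, had levels of 7.26 in the WRN-K577M heart and 8.32 in the control heart, 2.08-fold lower. The atrial transcription factor Nr2f2 (0.12) and Pam (0.023), the enzyme of atrial granules, were near equal. Clu (0.41) and Tbx5 (0.17) lay above 0 as well. Ventricular markers had a median of 0.17 over 11 genes, with none at least 2-fold different. They ranged from -0.62 for Irx4 to 0.85 for Kcnip2. Their median was 0.0 after quantile normalization and -0.00069 after cyclic loess. In RNA of whole tissue, fewer cells of a type and less RNA per cell cannot be told apart, and the part that atrial tissue had in the Sln ratio was not tested.

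Many markers of lung, fat and fibroblasts were lower in the same sample. Of 11 lung and airway markers, 3 were measured, all below 0, and 5 were well above background in the control heart only, led by Sftpc (at least 1336-fold lower). The median was -2.93 for 6 adipocyte markers, with 5 past 2-fold and Fabp4 (0.53) above 0. For 8 fibroblast markers it was -1.53, all being below 0, 6 past 2-fold and Dcn (-0.059) the nearest to 0. Their part in the ratios of Sln, Casq1 and Casq2 was not tested.

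**Figure D3:**
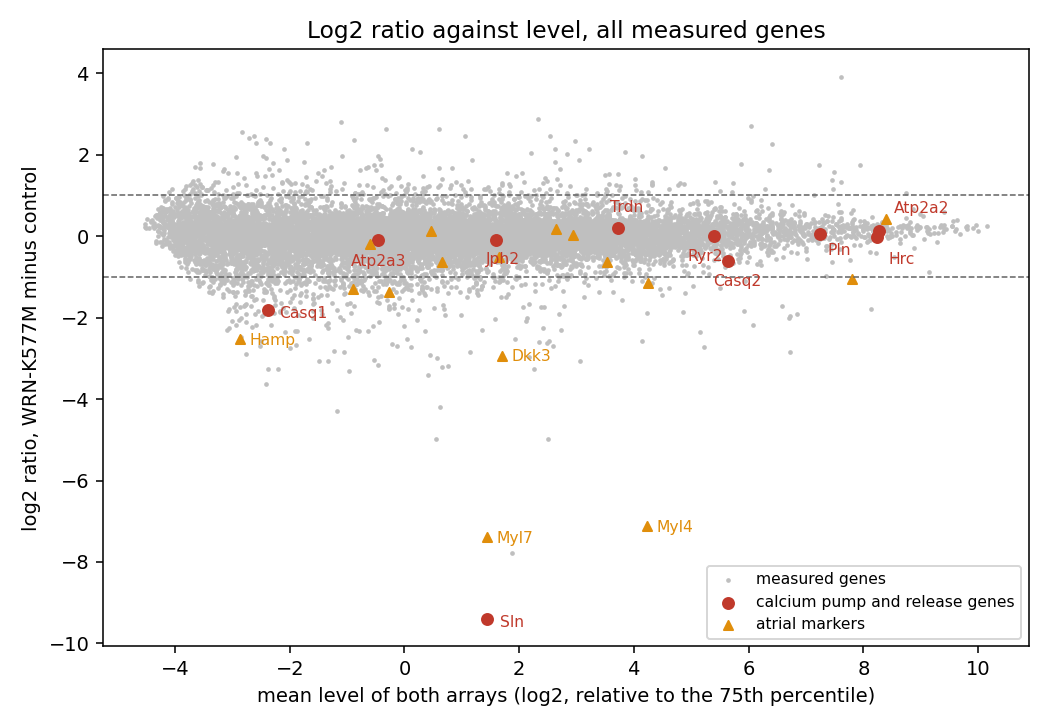
Log2 ratio (WRN-K577M minus control) against the mean level of both arrays for the 13999 measured genes (grey), with the 10 genes of the pump and release unit (circles) and atrial markers (triangles); dashed lines mark 2-fold. Sln has the lowest ratio of these genes, followed among those with established names by Scgb1a1 (not marked), Myl7 and Myl4. Of the 10, 8 lie inside the 2-fold lines.

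The wider calcium genes were taken from 5 lists, 73 genes in all, of which 64 were measured. Past 2-fold stood 4 genes, each of them lower in the WRN-K577M heart, beside the 3.46% of all measured genes that were as much lower. The median was -0.076, with 26 genes above 0 and 38 below.

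Other pump genes and small regulators of the pump had a median of 0.18 (7 genes), none being 2-fold different. Mrln, myoregulin, which inhibits the pump in mouse skeletal muscle, had levels of -1.53 in the WRN-K577M heart and -0.61 in the control heart. Its log2 ratio was -0.92, and -0.55 after normexp. It lay on the same side of 0 as Sln and by far less. Tmem38b, a cation channel of the reticulum membrane that balances the charge of calcium release, had a ratio of 0.52, and its relative Tmem38a, 0.15. The Golgi calcium pump Atp2c1 (0.23) and Hax1, which binds phospholamban (0.18), lay above 0.

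Partners of the release channel had a median of -0.033 over 16 genes, again with none at least 2-fold different. Fkbp1b, the FK506-binding protein that associates with Ryr2, had levels of -1.69 in the WRN-K577M heart and -0.82 in the control heart, a log2 ratio of -0.87 (-0.44 after normexp). Its close relative Fkbp1a had a ratio of -0.024. Sri, the gene of sorcin, a calcium-binding protein that acts on the release channel, had levels of 3.57 in the WRN-K577M heart and 2.83 in the control heart, a ratio of 0.74. The scaffold gene Homer1 had a ratio of -0.83 on its brightest probe, with its 5 probes between -0.83 and -0.18, and the junctional protein gene Jsrp1 -0.52.

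Kinases, phosphatases and anchoring proteins that act on pump and channel had a median of -0.21 (18 genes, 12 below 0). Akap7, whose product anchors protein kinase A near phospholamban, was the 1 gene at least 2-fold lower, and its probes disagreed. The brightest had levels of 1.04 in the WRN-K577M heart and 3.65 in the control heart, a log2 ratio of -2.61. The other 2 had ratios of -0.049 and -0.023, so 1 of 3 probes was past 2-fold. Camk2b and Camk2a, isoforms of the calcium and calmodulin dependent kinase, had ratios of -0.83 and -0.82 on their brightest probes, and Camk2a had -0.17 on its dimmer probe and -0.38 after normexp. Camk2d, the main isoform of heart, had a ratio of -0.22 on its brightest probe, with its 3 probes between -0.22 and 0.19. Akap6, which anchors protein kinase A close to Ryr2, had a ratio of 0.49.

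IP3 receptors and calcium-binding proteins of the lumen had a median of -0.061 over 10 genes, none at least 2-fold different. The ratios furthest from 0 were those of Sdf4, a calcium-binding protein of the Golgi lumen (0.63), the IP3 receptor Itpr1 (-0.32), the calcium-binding chaperone Calr (-0.30) and Rcn1 (-0.28).

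Surface channels, exchangers and pumps had a median of -0.11 over 13 genes, and the 3 genes at least 2-fold lower were all calcium channel subunits. Cacna1g, a T-type channel, had levels of -0.73 in the WRN-K577M heart and 0.42 in the control heart, a ratio of -1.14, and -2.09 on its dimmer probe. Cacna1h, another T-type channel, had levels of -0.65 in the WRN-K577M heart and 1.15 in the control heart, a ratio of -1.80, against -0.17 on its dimmer probe. Cacnb2, a subunit of the L-type channel, had a ratio of -1.07, and -0.79 on its dimmer probe. After normexp Cacna1g (-0.89) and Cacnb2 (-0.86) were under 2-fold and Cacna1h (-1.47) was not. The pore of the L-type channel, Cacna1c, had ratios of 0.030 on its brighter probe and 0.38 on its dimmer one. The sodium and calcium exchanger Slc8a1 had one of 0.35, with its 3 probes between 0.35 and 0.68. The store sensor Stim2 had a ratio of -0.39, and 0.025 after normexp.

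**Figure D4:**
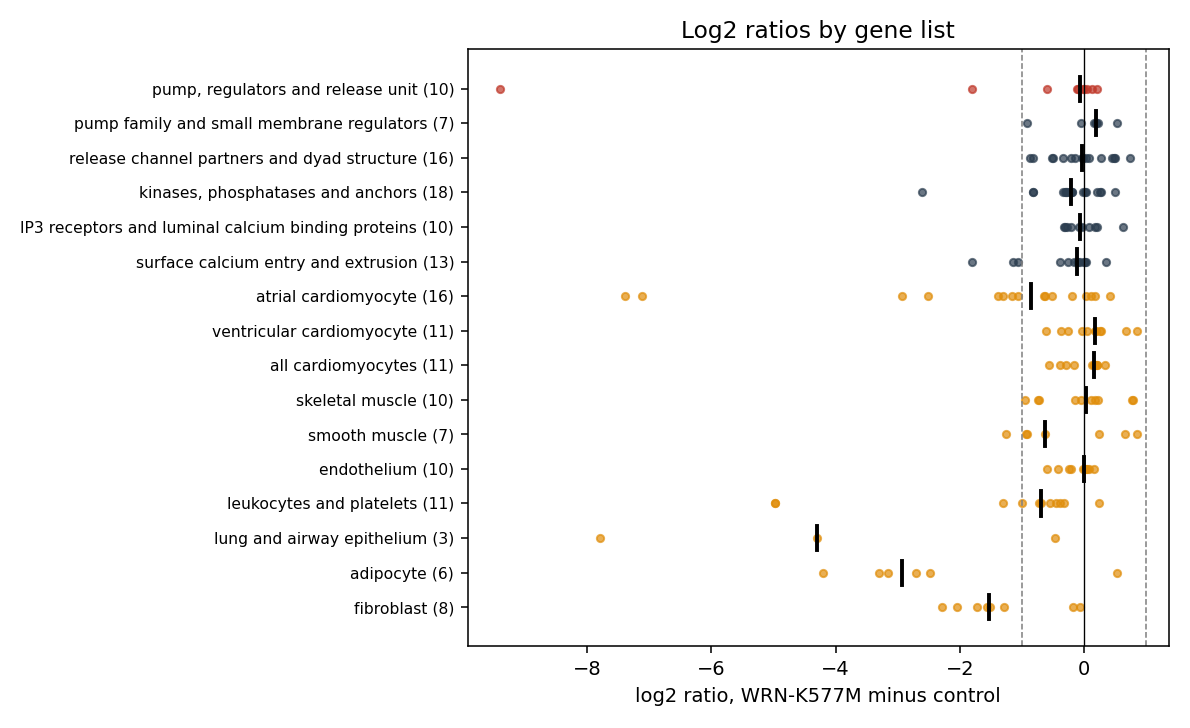
Log2 ratio (WRN-K577M minus control) of every measured gene in the pump and release unit (red), the 5 wider calcium lists (dark) and the cell type marker lists (orange), with the number of measured genes in brackets, a bar at the median and dashed lines at 2-fold. The calcium lists have medians between -0.21 and 0.18, and the atrial, lung, adipocyte and fibroblast lists have medians between -4.29 and -0.85. The leukocyte and platelet list has a median of -0.69 and the smooth muscle list one of -0.63, each with genes on both sides of 0.

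The processing mattered for the dim spots and for signs close to 0. The Sln ratio lay between -9.47 and -9.41 under 8 of 9 alternatives and was -7.51 after normexp. Casq2 lay between -0.71 and -0.60 under all 9 alternatives, and Trdn between 0.14 and 0.23 under all 10. For bright genes with 1 probe the filters and the mean of probes leave the ratio as it is, and the other scalings shift all genes alike. The settings that can move such genes against others gave Pln ratios of -0.11 after normexp, -0.055 after quantile normalization and -0.081 after cyclic loess, and Ryr2 ratios of -0.12, -0.10 and -0.093 in that order. Atp2a2 had 0.045, 0.046 and -0.018 in that order, and -0.027 as the mean of its probes. Bright genes as a class had higher ratios: the 1003 measured genes with a mean level above 5 had a median of 0.13, and the 7352 between 0 and 5 one of 0.011.

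**Figure D5:**
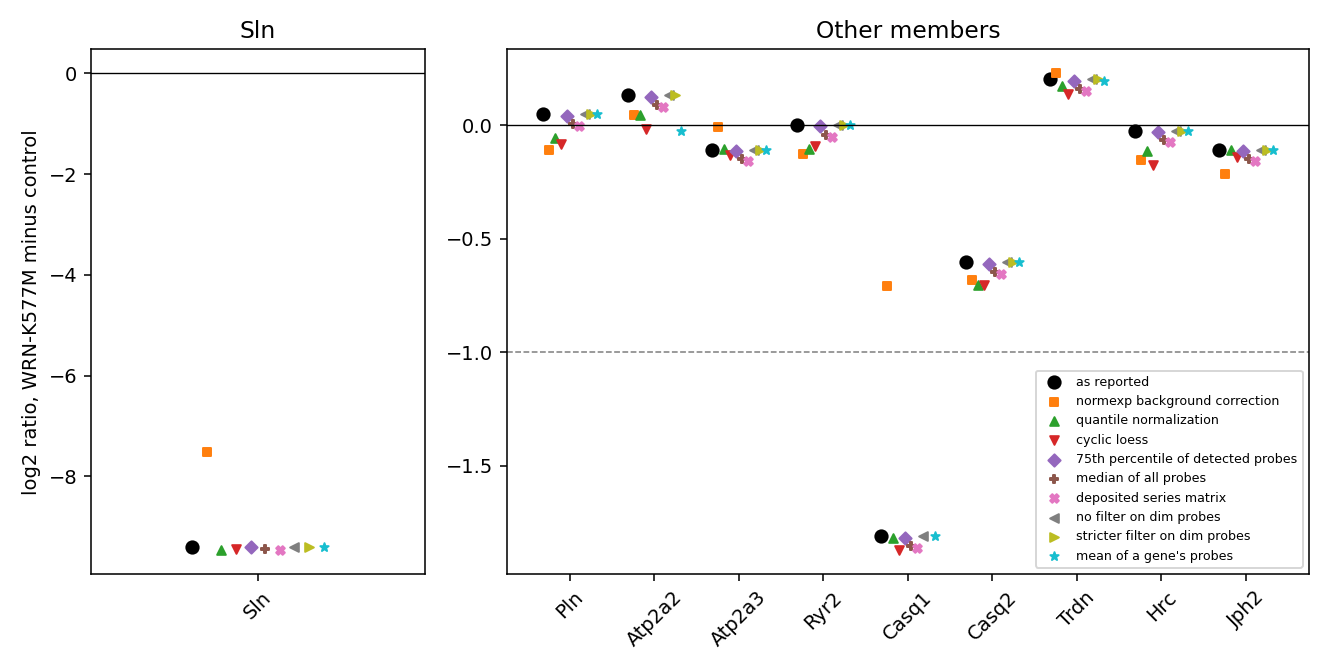
Log2 ratio (WRN-K577M minus control) of each of the 10 genes as reported (black) and under 9 other ways of processing, for Sln (left) and the other genes (right, with a dashed line at 2-fold lower). Normexp moves Sln to -7.51 and Casq1 to -0.71, and the other symbols lie close to the reported values.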

How the data were processed

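The spot files hold intensity values of Agilent Feature Extraction, version 11.5.1.1 per the file headers: a processed signal that was background-subtracted and detrended and not scaled between arrays, its error, and unprocessed medians of spot and background. The deposited series matrix holds the same intensity times 1 factor per array, 4.86 for WRN-K577M and 4.12 for control, with column medians of 79.0 and 79.5, checked over all spots; the rule behind the factors is not stated in the sources used here. Both arrays carry the same slide and scan in their headers.

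Control spots and 257 outlier spots were left out, log2 of the processed signal was set relative to each array's 75th percentile, and spots of a probe were averaged. Of 23871 RefSeq accessions, versions removed, 22544 matched a GRCm38.p6 table and named 28330 probes with 1 symbol each, none with several; 27350 probes stayed unnamed. The array design is annotated on mm9, so no array coordinates are given. A gene took its brightest probe well above background on both arrays. A gene above background on 1 array has a bound against the higher of its own level and the lowest level of a probe well above background on the other.

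The members and lists were chosen with earlier results of these data known. Named are all members, in each calcium list the 4 genes furthest from 0 and any at least 2-fold different, the 3 genes on either side of a 2-fold member in the order of ratios, and the markers discussed; others, such as Tmem38a, Fkbp1a, Camk2d, Cacna1c, Slc8a1 and Atp2a1, were named after their values were seen. Alternatives were normexp (offset 50, on the median spot signal because no mean is given), quantile and cyclic loess normalization, scaling on detected probes or on the median, the deposited matrix, no filter, a stricter filter, the mean of probes, and folds of 1.5 and 3. Python 3.11.15, numpy 2.4.6, pandas 2.3.3, matplotlib 3.10.9, R 4.3.3 and limma 3.58.1 were used. For this comparison, ratios and counts were checked on a simulation of 13999 genes: all 50 genes at each of log2 ratios of -3, -1.5, 1.5 and 3 were called at least 2-fold, and none of 13799 unchanged genes. The simulation holds measurement noise only and no spread between animals. It gave every gene the same noise and took every spot as well above background. It therefore says nothing of calls on dim spots.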

Additional observations from a re-analysis of the deposited data

How the results depend on the processing

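No paired analysis was possible because each group has 1 array. After normexp the log2 ratio of Sln was -7.51 and that of Casq1 -0.71, and the number of members at least 2-fold lower was 1. That number was also 1 with the stricter filter on dim probes, which leaves Casq1 out. The dimmer probe of Atp2a2 gave -0.19. No other member's ratio moved by more than its software error under the alternatives run, and no member was at least 2-fold higher under any of them. The background counts of 270 genes 2-fold higher and 484 lower were 115 and 197 after normexp, 1240 and 1080 without a filter, 945 and 1282 at 1.5-fold, and 63 and 154 at 3-fold. No scaling between arrays moved the median of all measured genes by 0.1 or more. Signal over background limits Casq1 and the WRN-K577M value of Sln, and the number of arrays limits every ratio. As the mean of their probes Akap7 (-0.90), Cacna1h (-0.99) and Cacnb2 (-0.93) were under 2-fold.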
